A study of Mus musculus with 30 samples.

Results

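The 9 genes of ATP release and of the adenosine pathway described here were followed in bone marrow-derived dendritic cells (BMDCs): the release channel Panx1, the ectonucleotidases Entpd1 (CD39) and Nt5e (CD73), the adenosine receptors Adora2a, Adora2b and Adora3, the nucleoside transporter Slc29a1, and the breakdown enzymes Ada and Adk. They were chosen by name, and each of the 9 matched 1 of the 43629 genes counted in the table by its Ensembl identifier. The library names hold 5 numbers for wild-type (WT) and 5 for Cacnb3-/- cells, which are called cultures here. What a number marks is not given in the labels. Each number has a library named ctrl, one named 0p5h and one named 24h, so that 6 groups held 5 libraries each. The marrow had been grown for 6 days with GM-CSF. The labels describe a pulse of 500 µM ATP for 30 min, after which the cells were harvested at once or 24 h later. WT mice were C57BL/6J and Cacnb3-/- mice C57BL/6N, so strain and genotype cannot be told apart. The study used mice of both sexes, and its methods do not name those behind these cultures. Whether each culture number was 1 animal is not stated, so the p-values measure the spread between these cultures.

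The labels contradict the library names for the early sets: under treatment, ctrl libraries carry 30 min of ATP and 0p5h libraries carry vehicle, while 24h libraries match their name. The sets are called here by the library names, and every change from ctrl to 0p5h has the opposite sign under the other reading. Under that reading, changes from 0p5h to 24h compare vehicle with 24h, and those from ctrl to 24h compare 30 min of ATP with 24h. No libraries are labelled as vehicle at 24 h. In changes to 24h the ATP pulse and the time in culture therefore cannot be told apart. Fosb, an immediate early transcription factor, averaged 2.33 CPM (reads of the gene per 1000000 counted reads after TMM normalisation) in ctrl and 121 CPM in 0p5h libraries of WT cells, and 5.42 and 198 CPM in Cacnb3-/- cells. Cacnb3 itself averaged 1387 ± 159 CPM over the 5 WT cultures and 988 ± 79.2 CPM over the 5 Cacnb3-/- cultures (SD, means of 3 libraries), with no overlap. Its reads were thus present in all libraries labelled Cacnb3-/-, and a count over the whole gene does not show whether a part of it was deleted.

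ATP leaves cells through channels such as pannexin-1, and ectonucleotidases on the cell surface take off its phosphates in steps until adenosine is left. CD39 takes ATP to AMP and CD73 takes AMP to adenosine, which acts on G protein-coupled receptors, of which the A2a and A2b types raise cyclic AMP. Equilibrative transporters then carry adenosine across the membrane, and inside the cell adenosine deaminase turns it into inosine or adenosine kinase into AMP. In dendritic cells ATP is known as a danger signal and adenosine as a signal that dampens inflammation.

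The libraries held 8237393 to 32164225 counted reads (median 19556920). The 6 dendritic cell genes, Itgax and H2-Ab1 among them, had reads in every group and summed to between 8401 and 25764 CPM per library, and the 6 mature dendritic cell genes, such as Ccr7 and Fscn1, to between 9088 and 27681 CPM. The 6 macrophage genes summed to between 200.4 and 727.8 CPM and the 6 granulocyte genes to between 97.2 and 498 CPM, whereas the T cell list reached at most 1.19 CPM and the erythroid list at most 0.360 CPM. Mitochondrial reads took 0.706 to 5.61% of the counts in WT and 2.16 to 16.5% in Cacnb3-/- libraries. A gene's deviation from its mean also moved with its GC content in some libraries. This slope, in log2 units per 20 percentage points of GC, had a median of -0.91 in the Cacnb3-/- 24h libraries (-1.08 to 0.10) and 0.22 in the WT 24h libraries (-0.00057 to 1.09), and for differences that touch the Cacnb3-/- 24h libraries, values with this trend removed are given beside many of the results.

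Per kilobase of counted length, Adora2a was the most abundant of the 9 transcripts in all 6 groups. Its mean lay between 41.6 ± 7.26 CPM per kilobase in Cacnb3-/- ctrl and 71.5 ± 9.94 in WT 24h libraries (SD, n = 5), and its range did not overlap that of Panx1, the next in order, in any group. Panx1 followed in all 6 groups with means of 8.38 to 10.9 CPM per kilobase. Slc29a1, Entpd1, Adk and Adora2b came next, between 1.80 and 7.10 CPM per kilobase, and neighbours among these 4 overlapped in every group. Nt5e and Ada were lower, with means of 0.414 to 1.43 CPM per kilobase for Nt5e and 0.405 to 0.941 for Ada, and the mean of Nt5e was above that of Ada in all groups but WT 24h, with ranges that overlapped in each of the 6 groups. Adora3, the A3 receptor, was last in all 6 groups at 0.190 to 0.380 CPM per kilobase. The depth behind the low genes was small: Adora3 had 377 reads and Ada 670 reads in all 30 libraries together, against 83352 for Adora2a.

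**Figure D1:**
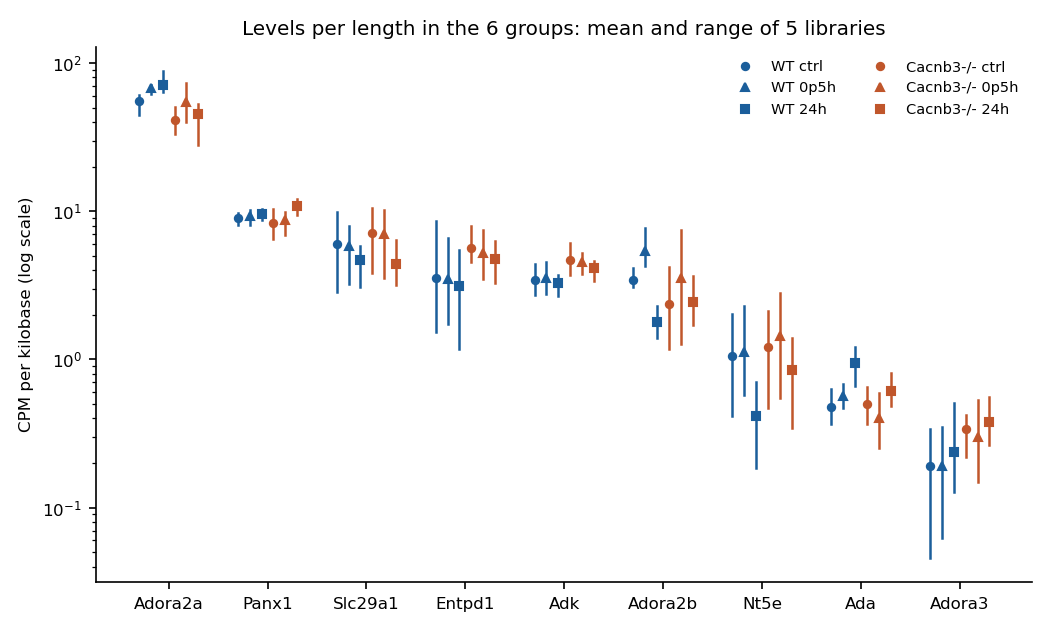
Levels per length of the 9 genes, in CPM per kilobase on a log scale, in the 6 groups of 5 libraries. Points are means and lines run from the lowest to the highest library: Adora2a sits above all other genes in every group, and Adora3 is last.

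Genes differed in how far the cultures of one genotype lay apart. Averaged over their 3 libraries, the highest WT culture exceeded the lowest by 4.65-fold for Entpd1 and 4.30-fold for Nt5e, but by 1.17-fold for Panx1 and 1.27-fold for Adora2a. Among Cacnb3-/- cultures the ratio was 4.22-fold for Nt5e, 3.02-fold for Adora2b, 1.84-fold for Entpd1 and 1.39-fold for Panx1. For Entpd1 and Nt5e the spread between cultures was thus larger than for the release channel and the A2a receptor, and in WT cells the same culture was on top in every set for each of them. Adora3 also spread widely between WT cultures, 4.97-fold, on few reads.

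**Figure D2:**
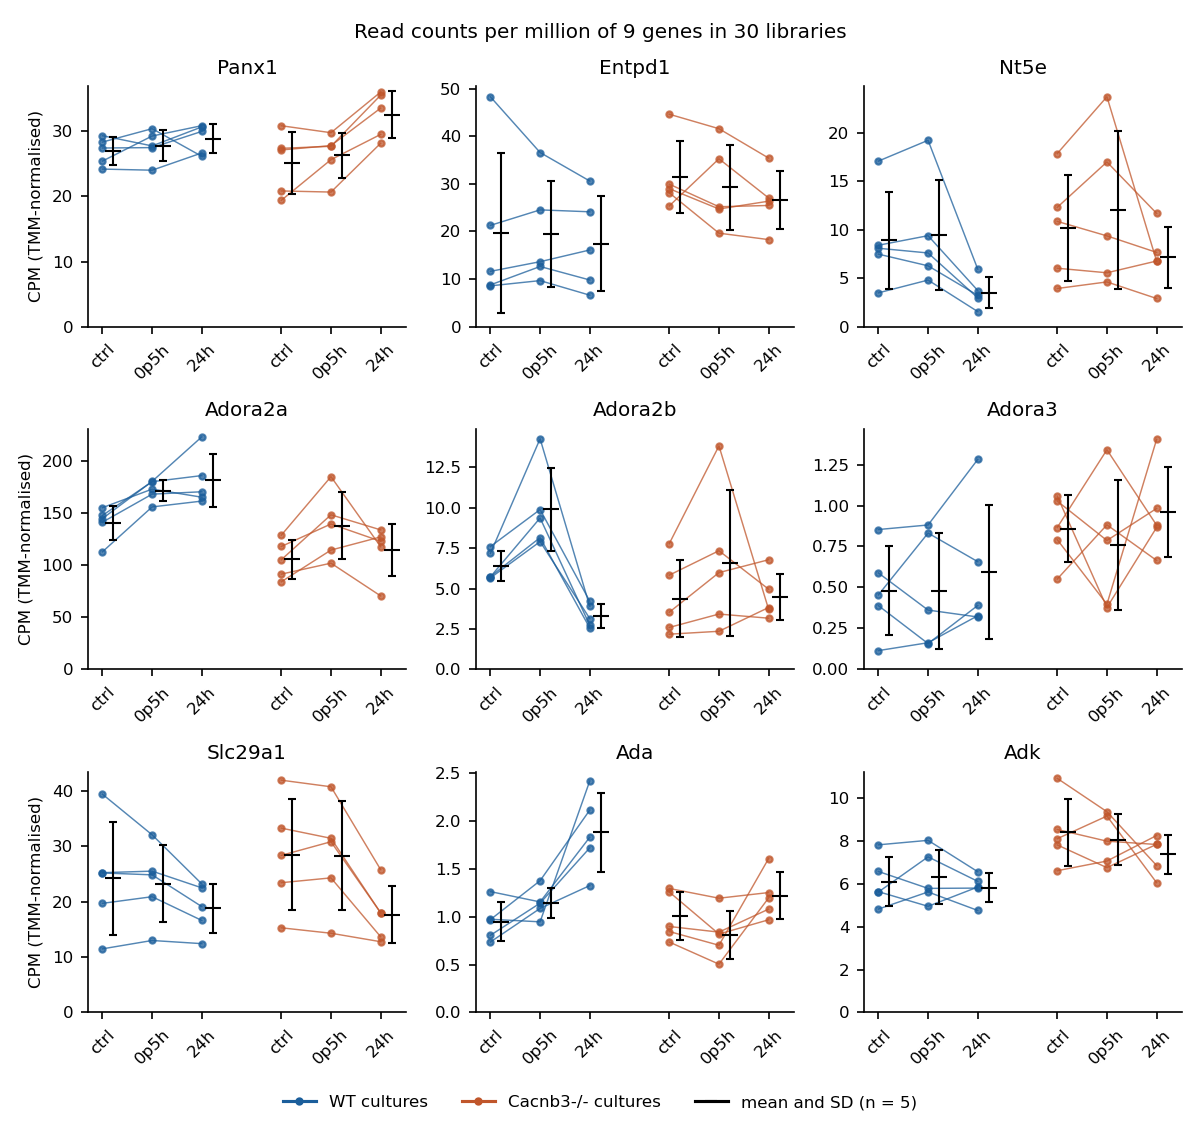
TMM-normalised CPM of each gene in the 30 libraries, with the 3 libraries of a culture joined by a line, WT on the left and Cacnb3-/- on the right of each panel. Black bars are the mean and SD of 5 libraries: in WT cells Adora2b falls from 9.91 ± 2.57 CPM in 0p5h to 3.31 ± 0.724 CPM in 24h libraries with no overlap.

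The first question was how the genes changed over the sets within each genotype. Calls needed both a 2-fold change or more and an adjusted p below 0.05 in edgeR's quasi-likelihood test, with Benjamini-Hochberg adjustment over all genes tested, and the count without the fold minimum is given beside them. Adora2b was the only one of the 9 genes called in any of the 6 comparisons of sets, and it was lower in 24h than in 0p5h libraries of WT cells. When the culture number entered the fit as a block, so that each culture was compared with itself, Nt5e, Ada and Adora2a also passed an adjusted p of 0.05 in WT cells, and Adora2a, Slc29a1 and Panx1 in Cacnb3-/- cells. Comparisons within a genotype share libraries and are not independent of each other. In these bulk samples, fewer cells of a type and less RNA per cell cannot be told apart.

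Adora2b encodes the A2b receptor, the low-affinity adenosine receptor. It lies on chr11:62248984-62266453 of GRCm38, plus strand. In ctrl libraries of the WT cultures p974s846, p974s850, p974s855, p974s856 and p974s864 it stood at 5.74, 7.18, 7.60, 5.73 and 5.66 CPM. In their 0p5h libraries it stood at 8.15, 14.3, 9.88, 9.36 and 7.90 CPM, and in their 24h libraries at 2.56, 3.90, 4.22, 2.73 and 3.15 CPM. The 3 sets did not overlap, with 24h below ctrl and ctrl below 0p5h, and each of the 5 cultures moved the same way. From 0p5h to 24h Adora2b fell by 1.57 on the log2 scale (log2 fold change -1.57, SE 0.21, 95% interval -2.03 to -1.11, adjusted p = 0.00356 in edgeR). It was called in each of the 5 fits that left out a culture (adjusted p 0.0135 to 0.0358 in edgeR) and in all 10 alternative fits (adjusted p 2.4e-16 to 0.0171). With the sequencing lane as a covariate its log2 fold change was -1.58.

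From ctrl to 0p5h Adora2b differed by 0.64 (95% interval 0.26 to 1.03) and from ctrl to 24h by -0.93 (-1.34 to -0.53) on the log2 scale in WT cells, and neither passed without the block (adjusted p = 0.361 and 0.158 in edgeR). With the block both passed, at 0.63 (SE 0.10, adjusted p = 0.00327) and -0.94 (SE 0.12, adjusted p = 0.00470), higher and lower in 5 of 5 cultures respectively. In the Cacnb3-/- group the cultures, p974s843 first, then p974s851, p974s852 and p974s853 and last p974s865, held Adora2b at 3.54, 5.83, 2.60, 2.18 and 7.78 CPM in ctrl libraries. It stood at 5.99, 7.34, 3.43, 2.36 and 13.8 CPM in 0p5h and at 6.78, 4.96, 3.17, 3.83 and 3.71 CPM in 24h libraries. All 5 cultures were higher in 0p5h than in ctrl, but from 0p5h to 24h 3 were lower and 2 higher, and the sets overlapped. The log2 change from 0p5h to 24h in Cacnb3-/- cells was -0.55 (95% interval -1.47 to 0.36, adjusted p = 0.474 in edgeR), and -0.51 with the GC trend removed.

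The 250 bases before the start of Adora2b, chr11:62248734-62248983 on the plus strand of GRCm38.p6 as RefSeq places it, are shown because the gene changed most clearly between sets, and the CCAAT box found in them is in capitals.
Adora2b: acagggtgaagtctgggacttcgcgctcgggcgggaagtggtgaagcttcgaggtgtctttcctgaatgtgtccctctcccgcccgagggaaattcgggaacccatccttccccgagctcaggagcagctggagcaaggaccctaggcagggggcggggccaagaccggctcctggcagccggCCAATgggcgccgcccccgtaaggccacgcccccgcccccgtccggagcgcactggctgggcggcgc
The box begins 67 bases before the start, and CCAAT occurs on either strand in 33.9% of the 32851 promoter windows of this length. The cyclic AMP response element TGACGTCA and its shorter form TGACG, which is contained in it, and the AP-1 site TGANTCA were not matched in this window. TGACGTCA was found in 1.55% of all windows and in none of the 17 windows listed for the genes, TGACG in 17.8% and in 5 of 17, TGANTCA in 6.75% and in 1 of 17, and CCAAT in 8 of 17. The windows matched 8 of the 9 genes, with none for Adora2a and more for Slc29a1 than for any other gene. Counts of windows are thus not counts of genes. The window of Nt5e held none of the 4 motifs. These matches are letters in the reference and no measurement of binding.

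Nt5e, which encodes CD73, the enzyme that makes adenosine from AMP at the cell surface, lies on chr9:88327197-88372092, plus strand. In the WT cultures in the order above it stood at 8.10, 7.49, 8.41, 17.1 and 3.49 CPM in ctrl and at 7.61, 6.28, 9.39, 19.3 and 4.81 CPM in 0p5h libraries. In 24h libraries it stood at 2.97, 3.23, 3.73, 5.94 and 1.55 CPM. Culture p974s856 was the highest and p974s864 the lowest in each set, and every culture was lowest at 24h, with a ratio of 24h to 0p5h between 0.308 and 0.514. Because cultures differed so much the sets overlapped, and the unblocked test did not pass (log2 fold change 0p5h to 24h -1.45, 95% interval -2.35 to -0.55, adjusted p = 0.156 in edgeR). Within cultures Nt5e fell by 1.39 on the log2 scale from 0p5h to 24h (SE 0.13, adjusted p = 0.000470) and by 1.31 (SE 0.12, adjusted p = 0.00262) from ctrl to 24h in edgeR with the block. Over the 10 alternative fits the adjusted p of the first of these ran from 1.06e-12 to 0.212, and with the sequencing lane as a covariate it was 0.0255.

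In Cacnb3-/- cultures Nt5e stood at 12.3, 10.9, 3.94, 6.03 and 17.9 CPM in ctrl, at 17.01, 9.37, 4.62, 5.56 and 23.8 CPM in 0p5h and at 11.7, 7.67, 2.90, 6.78 and 6.76 CPM in 24h libraries. Culture p974s852 was the lowest in each set, and 4 of 5 cultures were lower at 24h than at 0p5h. The log2 change of -0.75 (95% interval -1.75 to 0.25) did not pass (adjusted p = 0.389 in edgeR) and was -0.78 with the GC trend removed. Among the alternative fits it passed only in DESeq2 with the block (-0.61, adjusted p = 0.0374, range over 10 alternatives 0.0374 to 0.482).

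Ada, adenosine deaminase, lies on chr2:163726584-163750239, minus strand, and was read by only 8 to 42 reads per library. In WT cultures it stood at 0.736, 0.970, 0.806, 0.974 and 1.26 CPM in ctrl, at 1.09, 1.38, 1.14, 0.947 and 1.16 CPM in 0p5h and at 1.33, 2.12, 1.72, 2.42 and 1.83 CPM in 24h libraries. All 5 cultures were highest at 24h, and 24h and ctrl libraries did not overlap. Within cultures Ada rose by 0.99 from ctrl to 24h (SE 0.19, adjusted p = 0.0175) and by 0.70 from 0p5h to 24h (SE 0.19, adjusted p = 0.0468) on the log2 scale in edgeR with the block. Without the block the values were 0.99 and 0.71 and did not pass (adjusted p = 0.277 and 0.206 in edgeR). In Cacnb3-/- cells Ada averaged 1.01 ± 0.254, 0.812 ± 0.252 and 1.22 ± 0.243 CPM in ctrl, 0p5h and 24h libraries (SD, n = 5), higher at 24h than at 0p5h in 5 of 5 cultures, and no test passed (0p5h to 24h 0.60, 95% interval -0.01 to 1.21, adjusted p = 0.289 in edgeR, and 0.72 with the GC trend removed, 0.16 to 1.29).

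The 250 bases before Ada, chr2:163750240-163750489 on the minus strand of GRCm38.p6, are shown beside those of Adora2b because Ada and Adora2b moved in opposite directions at 24h in WT cells, with the match to CCAAT, read here on the other strand, in capitals.
Ada: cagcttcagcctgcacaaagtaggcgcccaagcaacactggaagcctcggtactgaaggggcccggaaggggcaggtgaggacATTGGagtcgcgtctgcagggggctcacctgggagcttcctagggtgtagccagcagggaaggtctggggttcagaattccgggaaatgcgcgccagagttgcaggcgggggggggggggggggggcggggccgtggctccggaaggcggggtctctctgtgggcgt
The match begins 167 bases before the start, and the 250 bases hold 67.2% G and C with 14 CpG pairs, against 69.6% and 22 pairs before Adora2b. None of the other 3 motifs was matched.

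Adora2a encodes the high-affinity A2a receptor and lies on chr10:75316943-75334788, plus strand. In WT cultures it stood at 148, 141, 155, 145 and 113 CPM in ctrl, at 179.96, 168, 173, 180.28 and 156 CPM in 0p5h and at 186, 170.33, 165, 223 and 161 CPM in 24h libraries. The ctrl libraries were below all 0p5h and all 24h libraries, while 0p5h and 24h overlapped. With the block Adora2a rose by 0.30 (SE 0.05, adjusted p = 0.00345) from ctrl to 0p5h and by 0.37 (SE 0.09, adjusted p = 0.0460) from ctrl to 24h on the log2 scale, and without it neither passed (adjusted p = 0.475 and 0.428 in edgeR). In Cacnb3-/- cultures it stood at 91.4, 118, 105, 129 and 84.1 CPM in ctrl, at 102, 139, 148, 185 and 114 CPM in 0p5h and at 70.5, 123, 134, 118 and 127 CPM in 24h libraries. All 5 were higher in 0p5h than in ctrl. This change passed with the block (0.36, SE 0.07, adjusted p = 0.0363) and not without it (0.37, adjusted p = 0.9999 in edgeR).

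Slc29a1, the equilibrative nucleoside transporter ENT1, lies on chr17:45585200-45599606, minus strand. In Cacnb3-/- cultures it stood at 33.3, 28.4, 15.3, 23.4 and 41.9 CPM in ctrl, at 31.4, 30.8, 14.3, 24.3 and 40.8 CPM in 0p5h and at 17.96, 17.99, 12.8, 13.7 and 25.8 CPM in 24h libraries. All 5 were lowest at 24h, and culture p974s865 was on top and p974s852 at the bottom in each set. From 0p5h to 24h Slc29a1 fell by 0.65 on the log2 scale with the block (SE 0.11, adjusted p = 0.00264), by 0.48 with the GC trend removed as well (adjusted p = 0.00514), and the value without the block, -0.67, did not pass (adjusted p = 0.241 in edgeR). In WT cultures it stood at 19.7, 25.2, 11.5, 25.2 and 39.4 CPM in ctrl, at 20.9, 24.8, 12.98, 25.5 and 32.1 CPM in 0p5h and at 16.6, 19.1, 12.4, 22.5 and 23.2 CPM in 24h libraries. All 5 were lower at 24h than at 0p5h there too, with a log2 difference of -0.31 (95% interval -0.83 to 0.21, adjusted p = 0.697 in edgeR). It passed in WT cells only with the GC trend removed and the block together (-0.33, adjusted p = 0.0169, range over 10 alternatives 0.0169 to 0.819).

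Panx1, the pannexin-1 channel that releases ATP, lies on chr9:15005161-15045478, minus strand. It was the steadiest of the 9 genes between WT cultures, with 24.0 to 30.9 CPM over all 15 WT libraries and a log2 difference of 0.05 (95% interval -0.14 to 0.24) from ctrl to 0p5h. In Cacnb3-/- cultures it stood at 19.4, 27.1, 27.4, 30.9 and 20.8 CPM in ctrl, at 25.7, 27.8, 27.7, 29.8 and 20.7 CPM in 0p5h and at 29.5, 33.6, 35.6, 36.04 and 28.2 CPM in 24h libraries. Each of the 5 was highest at 24h. From 0p5h to 24h it rose by 0.32 with the block (SE 0.09, adjusted p = 0.0195) and by 0.35 with the GC trend removed as well (adjusted p = 0.00615), while the unblocked value of 0.32 did not pass (adjusted p = 0.253 in edgeR). Between the 0p5h and 24h libraries the mitochondrial share rose in all 5 Cacnb3-/- cultures, from 5.13 to 13.6% in p974s853, and the sum of the dendritic cell genes fell in all 5, from 16453 to 9593 CPM in p974s853. In WT cells the dendritic cell sum fell in each culture too, from 25389 to 16875 CPM in p974s850 and from 18930 to 18708 CPM in p974s855. The WT mitochondrial share rose in each culture but p974s856, where it fell from 1.13 to 0.706%. The part of this share and sum in the changes of Slc29a1 and Panx1 above and of Entpd1 and Adk below was not tested. Nor was it tested for the changes of Adora2b, Nt5e and Ada in WT cells.

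Entpd1, which encodes CD39, the enzyme that takes ATP to AMP, lies on chr19:40612366-40741602, plus strand. In WT cultures it stood at 8.76, 21.3, 8.56, 11.6 and 48.3 CPM in ctrl, at 12.6, 24.5, 9.66, 13.6 and 36.6 CPM in 0p5h and at 9.79, 24.1, 6.60, 16.1 and 30.6 CPM in 24h libraries. Culture p974s864 was the highest in each set, p974s850 came second, and the sets themselves overlapped widely. The macrophage genes summed to 685 CPM in p974s850 and 562.08 CPM in p974s864 in ctrl libraries, against 200.4 to 359 CPM in the other 3 WT cultures. In 0p5h libraries their sum was 691 CPM in p974s850 and 506 CPM in p974s864, against 238 to 408 CPM in the other 3. In 24h libraries it was highest in p974s856, at 609.95 CPM, followed by 524.92 CPM in p974s850 and 425.66 CPM in p974s864. The part of these cells in the level of Entpd1 was not tested. No comparison of sets passed for Entpd1 with or without the block, at log2 differences between -0.25 and -0.01 in the 6 unblocked comparisons. Adk, adenosine kinase, on chr14:21052574-21448568, plus strand, stood between 4.76 and 10.9 CPM in the 30 libraries and its 6 log2 differences, from -0.19 to 0.07, did not pass either. With the GC trend removed and the block together both fell from 0p5h to 24h in Cacnb3-/- cells, Entpd1 by 0.29 (adjusted p = 0.0410, range over 10 alternatives 0.0410 to 0.982) and Adk by 0.54 (adjusted p = 0.00670, range 0.00670 to 0.789) on the log2 scale. Adora3, on chr3:105870858-105908928, plus strand, had 3 to 28 reads per library and was too low to be tested from 0p5h to 24h in WT cells. It overlaps Tmigd3 on the same strand. Counting used no option for overlapping genes, so reads on exons of both genes were left out of its count. How far this lowered its level was not tested.

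Counted over the 9 genes, 0 were called from ctrl to 0p5h in WT cells, where 0.176% of all genes tested were called (0.29% without the fold minimum, with 0 of 9). From ctrl to 24h in WT cells 0 of 9 were called under either rule, against 0.0152% of all genes under both. From 0p5h to 24h in WT cells 1 of the 8 tested was called under either rule, Adora2b, against 0.639% and 1.19% of all genes. In Cacnb3-/- cells 0 of 9 were called from ctrl to 0p5h (0.29% and 0.384% of all genes), 0 of 9 from ctrl to 24h (0% under both rules) and 0 of 9 from 0p5h to 24h (0.66% and 0.88%). At an unadjusted p under 0.05 the 6 comparisons held 2, 4, 3, 0, 2 and 2 of the genes in this order, against 4.54, 8.39, 11.2, 3.99, 10.8 and 17.5% of all genes tested. DESeq2 without the block passed 0, 2, 2, 0, 0 and 0 of them, against 1.08, 0.835, 3.16, 0.737, 0.53 and 3.76% of all genes. From ctrl to 24h in Cacnb3-/- cells 1343 of all genes had an unadjusted p under 0.05 in edgeR, and DESeq2 passed 66. The median log2 change of the 8 genes from 0p5h to 24h in WT cells was -0.13, beside 0.01 over all genes.

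With the block and no fold minimum, 2 of 9 passed from ctrl to 0p5h in WT cells (5.96% of all genes), 4 of 9 from ctrl to 24h (6.05%) and 3 of 8 from 0p5h to 24h (11.3%). In Cacnb3-/- cells 1 of 9 passed from ctrl to 0p5h (2.35%) and 2 of 9 from 0p5h to 24h (28.6%), the last a share below that of all genes. Ranges of CPM did not overlap for 2 of 9 between ctrl and 0p5h in WT cells (1.72% of 13755 genes), for 3 of 9 between ctrl and 24h (1.91%) and for 1 of 9 between 0p5h and 24h (3.55%).

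**Figure D3:**
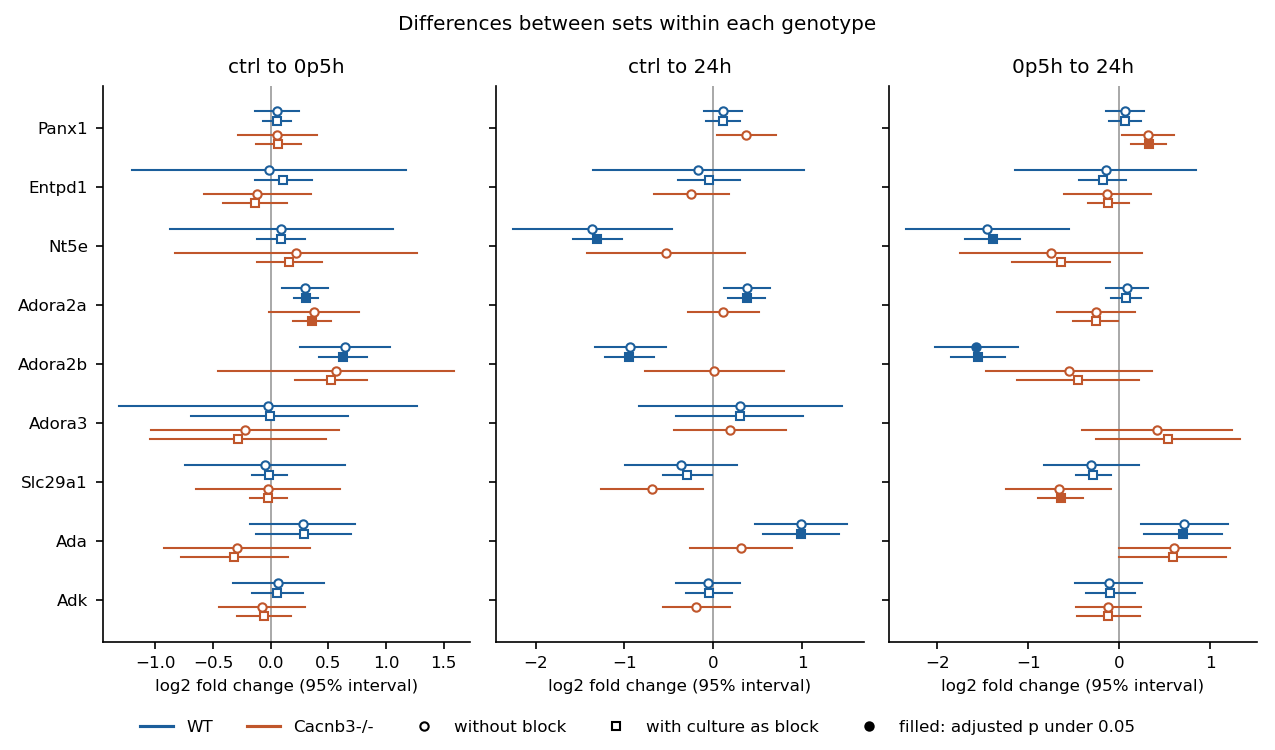
Log2 fold changes of the 9 genes between sets, with 95% intervals, in WT (blue) and Cacnb3-/- cells (orange). Circles are fits without and squares fits with the culture as a block, filled at an adjusted p under 0.05: without the block only Adora2b from 0p5h to 24h in WT cells is filled, and the block narrows the intervals of Nt5e, Entpd1 and Slc29a1. The blocked fit of ctrl to 24h in Cacnb3-/- cells and Adora3 from 0p5h to 24h in WT cells are not drawn.

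The second question was whether the change between sets differed with the genotype. Without the block it passed for none of the 9 genes in any of the 3 tests of that difference, and 0% of all genes passed under either rule in edgeR. DESeq2 and limma-voom passed 0 genes without the block as well. At an unadjusted p under 0.05 there were 30, 658 and 789 genes for ctrl to 0p5h, ctrl to 24h and 0p5h to 24h in edgeR. These were 0.223, 4.86 and 5.88% of all genes tested, with 0, 1 and 1 of the 9 genes among them. The gene in both was Adora2b. Its change from 0p5h to 24h was 1.02 higher on the log2 scale in Cacnb3-/- than in WT cells (SE 0.49, 95% interval 0.0015 to 2.03, adjusted p = 0.680 in edgeR), and that from ctrl to 24h 0.95 higher (0.09 to 1.80, adjusted p = 0.753). For Nt5e the difference in the change from 0p5h to 24h was 0.70 (95% interval -0.66 to 2.05), so the fall of Nt5e seen within WT cultures was not shown to differ between genotypes. For Slc29a1 it was -0.37 (-1.14 to 0.41) and for Panx1 0.25 (-0.07 to 0.58). With the GC trend removed 295 and 350 genes had an unadjusted p under 0.05 for ctrl to 24h and 0p5h to 24h in edgeR, and the differences in the change from 0p5h to 24h were 1.09 for Adora2b, 0.68 for Nt5e, -0.14 for Slc29a1 and 0.31 for Panx1. With the block edgeR passed 0 genes for ctrl to 0p5h and 1 for 0p5h to 24h, neither among the 9, with Adora2b at 1.08 (adjusted p = 0.109) and Nt5e at 0.74 (adjusted p = 0.145) for the latter. DESeq2 with the block passed 461 genes for 0p5h to 24h, and Adora2b was among them (1.196, adjusted p = 0.0465, range over 10 alternatives 0.0465 to 1).

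The third question was how Cacnb3-/- and WT cells differed within each set. None of the 9 genes was called in ctrl, 0p5h or 24h libraries or with the 3 libraries of a culture summed, and 0% of all genes passed at an adjusted p under 0.05, with or without the fold minimum, in these 4 comparisons in edgeR with the libraries of each comparison fitted alone. In 24h libraries edgeR passed 3986 of 13755 genes when all 30 libraries were fitted together and 1262 of 25806 with no filter on low counts, while limma-voom passed 0. At an unadjusted p under 0.05 in edgeR there were 2161, 2103, 4877 and 3449 genes, or 16.6, 16.4, 38.4 and 23.3% of those tested. Of the 9 genes 2, 0, 3 and 2 were among them, and the 3 of 9 at 24h lay below the share of all genes. In DESeq2 219, 115, 3368 and 992 genes passed at an adjusted p under 0.05, or 1.68, 0.898, 26.5 and 6.69%. The 9 genes held 1 higher and 1 lower among these at 24h and 0 in the other comparisons. The mature dendritic cell genes summed to 18298 to 26988 CPM in WT and 9088 to 16575 CPM in Cacnb3-/- 24h libraries, without overlap, and their part in the differences below was not tested.

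At 24h the 3 genes at an unadjusted p under 0.05 in edgeR were Adora2a, Nt5e and Ada. Adora2a stood at 161 to 223 CPM in the 5 WT and at 70.5 to 134 CPM in the 5 Cacnb3-/- libraries, with no overlap. It was the one gene of the 9 whose 24h ranges did not overlap between genotypes, as they did not for 6.15% of all genes. Its log2 difference was -0.65 (SE 0.17, 95% interval -1.03 to -0.27, adjusted p = 0.0515 in edgeR). DESeq2 gave an adjusted p of 0.00923 for it, with a range of 0.00581 to 0.303 over 7 alternative fits, and DESeq2 passed 26.5% of all genes in this comparison and 2 of the 9. With the GC trend removed the difference was -0.25 (95% interval -0.59 to 0.08). The GC content of Adora2a was 56.4%, the highest of the 9 genes. Over the 10 fits that each left out 1 culture the log2 difference of Adora2a ran from -0.71 to -0.52 and its adjusted p in edgeR from 0.0190 to 0.121, and it passed only without WT culture p974s864 (adjusted p = 0.0387) or without Cacnb3-/- culture p974s865 (0.0190). The share of all genes passing in those fits is not given here. Adora2a was also measured lower in Cacnb3-/- ctrl libraries (-0.39, 95% interval -0.69 to -0.08, adjusted p = 0.253 in edgeR). In 0p5h libraries it differed by -0.30 (-0.63 to 0.03) and with libraries summed by -0.41 (-0.69 to -0.12, adjusted p = 0.136 in edgeR). With the GC trend removed the ctrl and 0p5h values were -0.26 and -0.20.

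Nt5e averaged 3.48 ± 1.59 CPM in WT and 7.16 ± 3.13 CPM in Cacnb3-/- 24h libraries (SD, n = 5), with overlap. The log2 difference was 1.06 (95% interval 0.24 to 1.87, adjusted p = 0.0689 in edgeR) and 1.02 with the GC trend removed. DESeq2 gave an adjusted p of 0.0287 (0.0287 to 0.140 over 7 alternative fits). In ctrl and 0p5h libraries Nt5e differed by 0.22 and 0.37, with intervals that included 0. Ada averaged 1.88 ± 0.413 CPM in WT and 1.22 ± 0.243 CPM in Cacnb3-/- 24h libraries, a log2 difference of -0.58 (95% interval -1.12 to -0.03, adjusted p = 0.112 in edgeR), or -0.37 with the GC trend removed. Its differences in ctrl and 0p5h libraries were 0.09 and -0.46, also with intervals that included 0.

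In Cacnb3-/- cells Adk was measured above the WT mean in each set, by 0.49, 0.36 and 0.35 on the log2 scale in ctrl, 0p5h and 24h libraries (95% interval at 24h -0.0034 to 0.70, adjusted p = 0.133 in edgeR). Its GC content of 37.5% was the lowest of the 9 genes, and the 24h difference was -0.27 with the GC trend removed. Entpd1 was likewise measured higher in Cacnb3-/- cells, by 0.70, 0.61 and 0.62, with intervals that included 0 in each set, and by 0.37 at 24h with the GC trend removed. Without WT culture p974s864, the one with most Entpd1, it was called in ctrl libraries (1.34, adjusted p = 0.0343 in edgeR) and with libraries summed (1.10, adjusted p = 0.0457). Dropping the highest WT culture widens such a difference by construction, and the share of all genes called in these fits is not given here. Panx1 differed by -0.08, -0.06 and 0.19 between genotypes, the last with a 95% interval of -0.07 to 0.44, and Slc29a1 by 0.26, 0.30 and -0.07. With the GC trend removed the 24h values were 0.25 for Panx1 and, with the sign turned, 0.19 (-0.22 to 0.60) for Slc29a1. Adora2b was -0.51 and -0.57 in ctrl and 0p5h and 0.44 in 24h libraries, and Adora3 0.85, 0.66 and 0.73, with intervals that included 0 throughout. At 24h they were 0.52 and 0.74 with the GC trend removed.

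**Figure D4:**
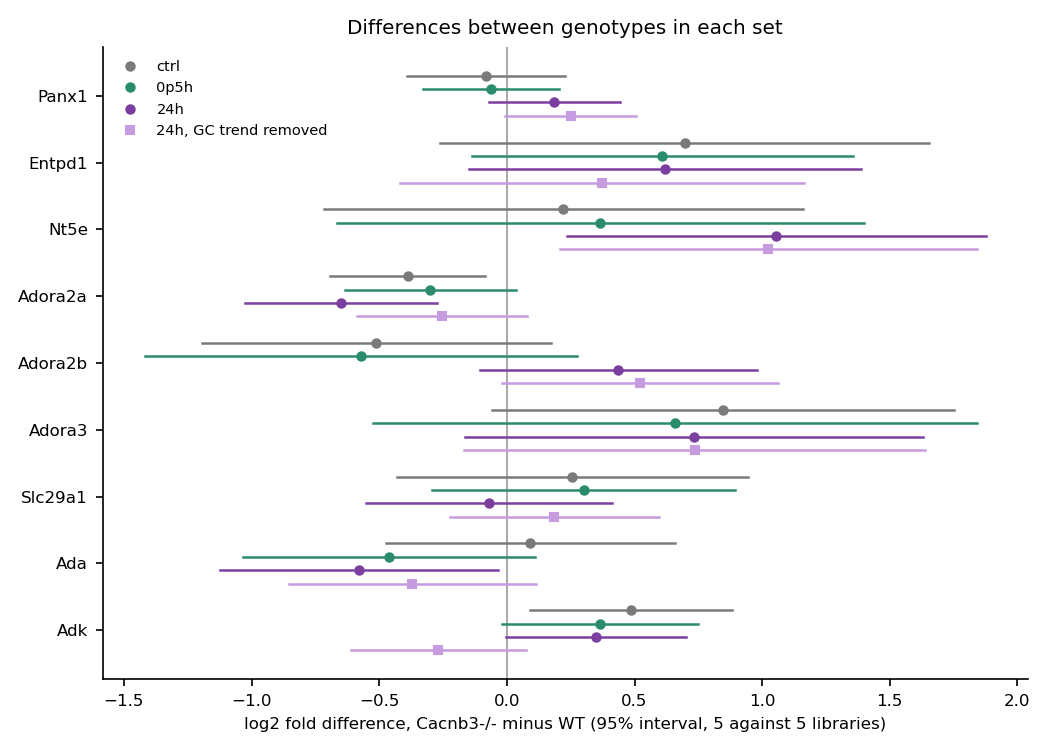
Log2 differences between Cacnb3-/- and WT cells for the 9 genes in each set, with 95% intervals (5 against 5 libraries, edgeR). At 24h Adora2a stands at -0.65 and Nt5e at 1.06. With the GC trend removed (squares) Adora2a moves to -0.25 and Adk from 0.35 to -0.27, while Nt5e stays at 1.02.

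A wider list of 54 genes of nucleotide release, ectonucleotidases, nucleoside transport and purine breakdown was counted for comparison. Of its 37 genes tested from 0p5h to 24h in WT cells 1 passed at an adjusted p under 0.05, beside 1.19% of all genes. It was Calhm2, a membrane channel gene of the calcium homeostasis modulator family, which rose (0.80, SE 0.16, adjusted p = 0.0396 in edgeR). None passed in the other 12 comparisons in edgeR without the block. With the block 1 gene of 39 was higher and 1 lower from ctrl to 0p5h in WT cells, beside 5.96% of all genes in both directions together: Gja1, a connexin (0.82, adjusted p = 0.00470), and Calhm2 (-0.43, adjusted p = 0.0101). The same genes, 2 of 35, passed in Cacnb3-/- cells beside 2.35% of all genes, where Gja1 rose by 0.75 (adjusted p = 0.00386) and Calhm2 fell by 0.49 (adjusted p = 0.0363) in edgeR with the block. From 0p5h to 24h in WT cells Calhm2 and Pnp2, a purine nucleoside phosphorylase, were higher and Gja1 lower (0.77, 0.52 and -1.06), 3 of 37 beside 11.3% of all genes. In Cacnb3-/- cells 6 were higher and 5 lower of 37, a share close to the 28.6% of all genes, led by Nt5c3, a cytosolic nucleotidase (0.79), Entpd6 (-0.65) and the adenylate kinase Ak4 (-0.82). From ctrl to 24h in WT cells 3 of 38 were lower, the intracellular nucleoside transporter Slc29a3 (-0.38), the guanine deaminase Gda (-0.56) and the AMP deaminase Ampd3 (-0.48), and none higher, beside 6.05% of all genes.

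Genes whose log2 CPM ran close to each of the 9 over the 30 libraries were also listed, as a description over 13755 genes, since the libraries come in 3 from each of 10 cultures and share depth and composition. Entpd1 ran with Clec4b1 (Pearson's r = 0.965), Timp2 (0.965) and Mamdc2 (0.947), Slc29a1 with Tm6sf1 (0.949) and Unc119 (0.936), and Adora2a with Sh3bp4 (0.925), Cnn2 (0.922) and Nuak2 (0.920). Adora2b ran with Nfe2l2 (0.913), Dpys (0.873) and Dcstamp (0.864), and Nt5e with Snx18 (0.894), Mcam (0.891) and Ero1a (0.891). Those of Panx1 were Poglut1 (0.856), Aebp2 (0.839) and Gm11772 (0.838), of Adk Cebpz (0.861), Nop58 (0.839) and Pals2 (0.836), of Ada Gm56350 (0.820), Lima1 (0.810) and Wars1 (0.804), and of Adora3 Retnlg (0.803) and Hmgb1 (0.802). Among the 9 genes themselves r ran from -0.672 (Panx1 and Slc29a1) to 0.660 (Entpd1 and Adk).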

How the data were processed

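The authors deposited raw read counts per gene. Per the file headers they came from featureCounts 1.5.1 with the Ensembl 79 annotation of GRCm38, without options for strand, multimapping or overlapping genes. The labels name STAR 2.4 and mm10, and the study's methods name GRCm39. Symbols came from GENCODE and promoters from RefSeq. Counts were filtered by filterByExpr, TMM-normalised and tested in edgeR 4.0.16 (R 4.3.3), in fits of only the groups compared, 13 comparisons in all. Alternatives were DESeq2 1.42.0, limma-voom (limma 3.58.1), DESeq2 size factors, no filter, all 30 libraries in one fit, the lane, removal of each library's GC trend (lowess offsets), a culture block, and omission of each culture. DESeq2 with the block, and GC removal with the block, were added after seeing the data. The code was tested on simulated data. Libraries of one culture number deviated from their group means together (median r 0.609 against -0.219 between numbers, over 0.1 in 29 of 30 pairs). The exception was ctrl and 24h of Cacnb3-/- culture p974s843 (0.0746), so numbers were taken to pair libraries except where that pair is needed. That ctrl library reached 0.317 with the 0p5h library of its own number and 0.399 with the 24h library of p974s865. Blocked fits of ctrl to 0p5h in Cacnb3-/- cells still use it as a pair. Deviations within a group sum to 0, which by itself pulls the values between numbers below 0. Such a value still reached 0.464, between WT ctrl of p974s864 and 0p5h of p974s850. The labels do not say what a number marks. Library depth is given in the report. The genes named are the 9 members, Cacnb3, Fosb and Nr4a1 as checks, at most 3 genes of lowest p per comparison from the wider list, and each member's 3 closest patterns, of which some are not reported here. Members and lists were chosen with earlier results of these data known.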

Additional observations from a re-analysis of the deposited data

Results flagged for a closer look

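In the 54 groups of 5 libraries (9 genes in 6 groups) 2 held a library far from the other 4 by Dixon's test at its 95% critical value of 0.71, close to the 1 in 20 that chance gives. Entpd1 was at 44.6 CPM in the ctrl library of Cacnb3-/- culture p974s865, with the other 4 between 25.3 and 29.9 CPM. Adora2a was at 70.5 CPM in the 24h library of Cacnb3-/- culture p974s843, with the other 4 between 118 and 134 CPM. That library also had the fewest reads of all, 8237393, and the highest mitochondrial share, 16.5%, and the part of these in its Adora2a level was not tested.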

How the results depend on the processing

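The number of the 9 genes called changed with the processing in these comparisons, and the cause was not tested. Between genotypes in 24h libraries it was 0 in edgeR and 1 in DESeq2, where all genes called were 0 and 557 of 12706. From ctrl to 24h in WT cells it was 0, and 1 with the culture block, with DESeq2 and the block, and with the GC trend removed and the block. All genes called there rose from 2 to 122, 132 and 147 of 13176 in this order. From 0p5h to 24h in WT cells it was 1, and 2 with DESeq2, with the lane, with the block, with DESeq2 and the block, and with the GC trend removed and the block. All genes called there rose from 82 to 140, 184, 228, 234 and 231 of 12830 in this order. For the genotype difference in the change from 0p5h to 24h it was 0, and 1 with DESeq2 and the block (Adora2b, 1.196, adjusted p = 0.0465, range over 10 alternatives 0.0465 to 1). All genes called rose from 0 to 69 of 13424 with that fit. Leaving out 1 culture at a time gave 0 to 1 between genotypes in ctrl libraries and 0 to 1 with libraries summed, the 1 being Entpd1 without WT culture p974s864, its highest. For these fits the share of all genes called is not given. The block changed no call of a gene other than those given beside the results, apart from ctrl to 24h in Cacnb3-/- cells, where the pairing is not established: there Panx1 stood at 0.39 (adjusted p = 0.0489) and Slc29a1 at -0.66 (adjusted p = 0.0137), and all genes passing rose from 0 to 1063. Of 116 tested results of the 9 genes only Adora2b from 0p5h to 24h in WT cells passed an adjusted p of 0.05 to begin with, so only it could lose significance, and it passed in all 10 alternative fits and 5 fits that left out a culture. Among 1935 alternatives to the 116, 84 changed sign with neither value under an adjusted p of 0.05. Depth limits Adora3, with 3 to 28 reads a library, and Ada, with 8 to 42.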
